A study of Mus musculus with 6 samples.

Results

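The Cyp2c subfamily is described here by 10 of its mouse genes, Cyp2c29, Cyp2c37, Cyp2c38, Cyp2c40, Cyp2c50, Cyp2c54, Cyp2c67, Cyp2c68, Cyp2c69 and Cyp2c70, which were taken by symbol from a table of 16426 genes measured in mouse liver. The liver RNA came from 6 male C57/BL mice, and the labels give a CCl4 group of 3 in which 20% carbon tetrachloride over 10 weeks was used to produce fibrosis, and a normal group of 3 given saline. The deposited table compares a set of libraries named ly_A with a set named ly_B, and neither name matches a label. Which of them is the CCl4 group is therefore not stated, and every difference below is stated between ly_A and ly_B and none as an effect of CCl4. The log2 fold change is read as ly_A over ly_B, following the name of the comparison, since the headers do not give its sign. That sign was not checked against the columns of single libraries, although such a check needs no labelled sample. Every direction below rests on this reading. The 18 columns of single libraries match no labelled sample and were not used, so no level, replicate spread or depth per library is given.

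Cyp2c enzymes are haem-containing monooxygenases of the endoplasmic reticulum that take electrons from cytochrome P450 reductase. In liver they oxidise drugs, steroids and fatty acids, and several of the mouse enzymes turn arachidonic acid into epoxides and hydroxylated products that act as lipid signals. Their genes stand side by side on mouse chromosome 19, and their transcription in hepatocytes is known to depend on liver-enriched factors, on the xenobiotic receptors CAR and PXR, and for some members on the sex-specific pattern of growth hormone.

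All 10 genes had a positive value in the authors' deposited table, and 9 of the 10 passed an adjusted p of 0.05 as higher in ly_A. Of all 14114 genes tested, 18.1% were called higher in ly_A and 17.7% higher in ly_B, together 35.8%. The median log2 fold change was 2.26 over the 10 genes and 0.07 over all genes tested in the authors' deposited table. The 10 values ran between 0.69 and 11.91, so the members differed widely in size while having the same sign. A called difference of at least 2-fold was found for 8 of the 10 genes, against 10.9% of all genes tested, and one of at least 4-fold for 6, against 3.03% of all genes tested. By p-value, 2 of the 10 genes stood among the 100 tested genes with the smallest p, and 6 among the first 500. In bulk liver, fewer cells of a type and less RNA per cell cannot be told apart.

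**Figure D1:**
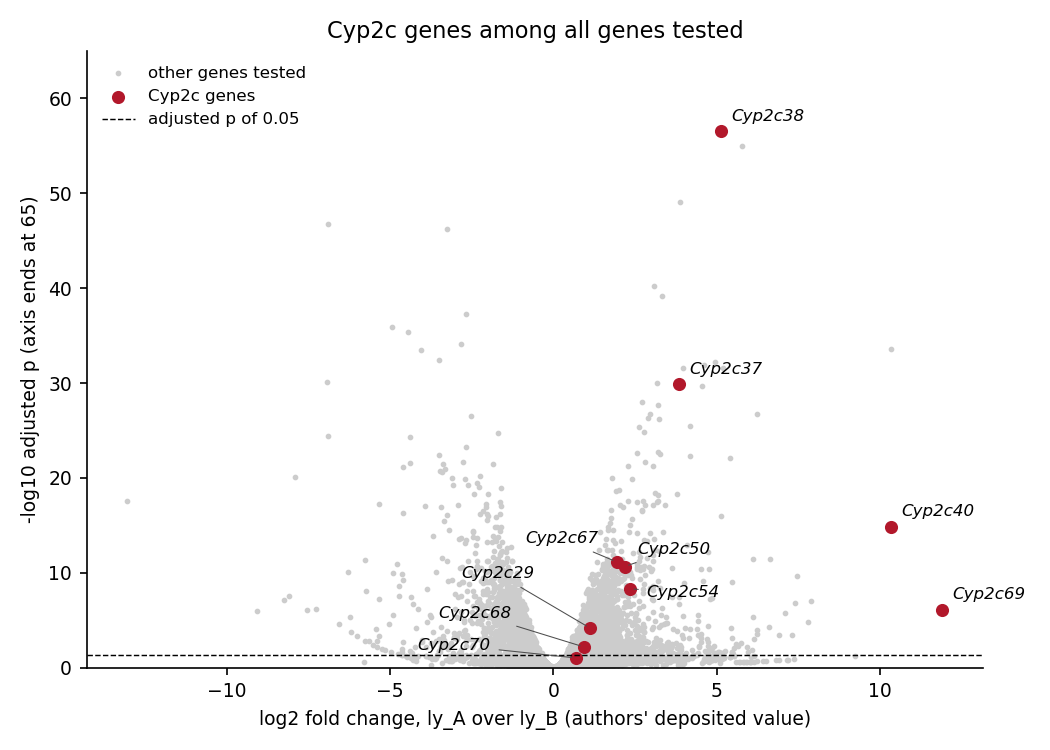
Log2 fold change (ly_A over ly_B) against -log10 adjusted p for all 14114 genes tested, from the authors' deposited table, with the 10 Cyp2c genes in red; 3 genes lie above the axis limit of 65. The Cyp2c genes all lie right of 0, with Cyp2c38 highest and Cyp2c40 and Cyp2c69 farthest right.

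Cyp2c69 and Cyp2c40 had the largest log2 fold changes towards ly_A of all genes tested, ranks 1 and 2. Cyp2c69 stood at 11.91 (adjusted p = 7.83e-07) and Cyp2c40, an enzyme that hydroxylates arachidonic acid, at 10.34 (adjusted p = 1.38e-15) in the authors' deposited table. Both are known as genes with higher expression in female than in male mouse liver, and all 6 animals are labelled male. Cyp2c40 lay 5.20 log2 units above the next member, Cyp2c38. A fitted value of this size can arise where one side of the comparison has next to no reads, and the reads of ly_B were not examined. They are therefore given as the authors' fitted values and not as folds between measured levels. By p-value Cyp2c69 ranked only 770 of the tested genes, against rank 114 for Cyp2c40.

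Cyp2c69 and Cyp2c40 are close copies of Cyp2c67 and Cyp2c68, which had far smaller values. Cyp2c67 stood at 1.94, or 3.84-fold (adjusted p = 7.03e-12), and Cyp2c68 at 0.94, or 1.92-fold (adjusted p = 0.00636), both higher in ly_A in the authors' deposited table. Over the 1476 coding bases of Cyp2c69, 31 bases differ in Cyp2c40, 34 in Cyp2c67 and 51 in Cyp2c68. Cyp2c40 and Cyp2c68 are the closest pair of all 45 among the 10 genes, with 98.1% of aligned coding bases identical, yet their values, 10.34 and 0.94, lie far apart. The difference in log2 fold change between copies was not tested.

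A read can be assigned to one of these 4 genes only where their sequences differ. The stretch of 60 coding bases in which they differ most is shown. It covers positions 264 to 323 of the Cyp2c69 coding sequence, counted from the first base of the start codon, in GENCODE M21 transcripts (GRCm38, chromosome 19). Capitals mark bases that differ from Cyp2c69.
Cyp2c69: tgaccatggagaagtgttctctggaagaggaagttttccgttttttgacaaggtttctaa
Cyp2c40: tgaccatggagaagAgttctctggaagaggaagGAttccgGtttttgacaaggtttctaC
Cyp2c67: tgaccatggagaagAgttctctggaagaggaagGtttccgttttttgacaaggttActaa
Cyp2c68: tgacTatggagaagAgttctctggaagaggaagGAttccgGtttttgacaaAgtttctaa
Even here only 8 of 60 positions vary among the 4 copies. The median stretch of that length held 2 varying positions, and 9.1% of the 1417 stretches held none. Over the whole coding sequence 66 positions vary, and the base is found in one copy alone at 15 of them for Cyp2c69, 3 for Cyp2c40, 12 for Cyp2c67 and 17 for Cyp2c68. These counts cover the 1476 aligned positions. The annotated coding sequence of Cyp2c40 holds 87 further bases without a counterpart in the annotated coding sequences of the other copies.

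**Figure D2:**
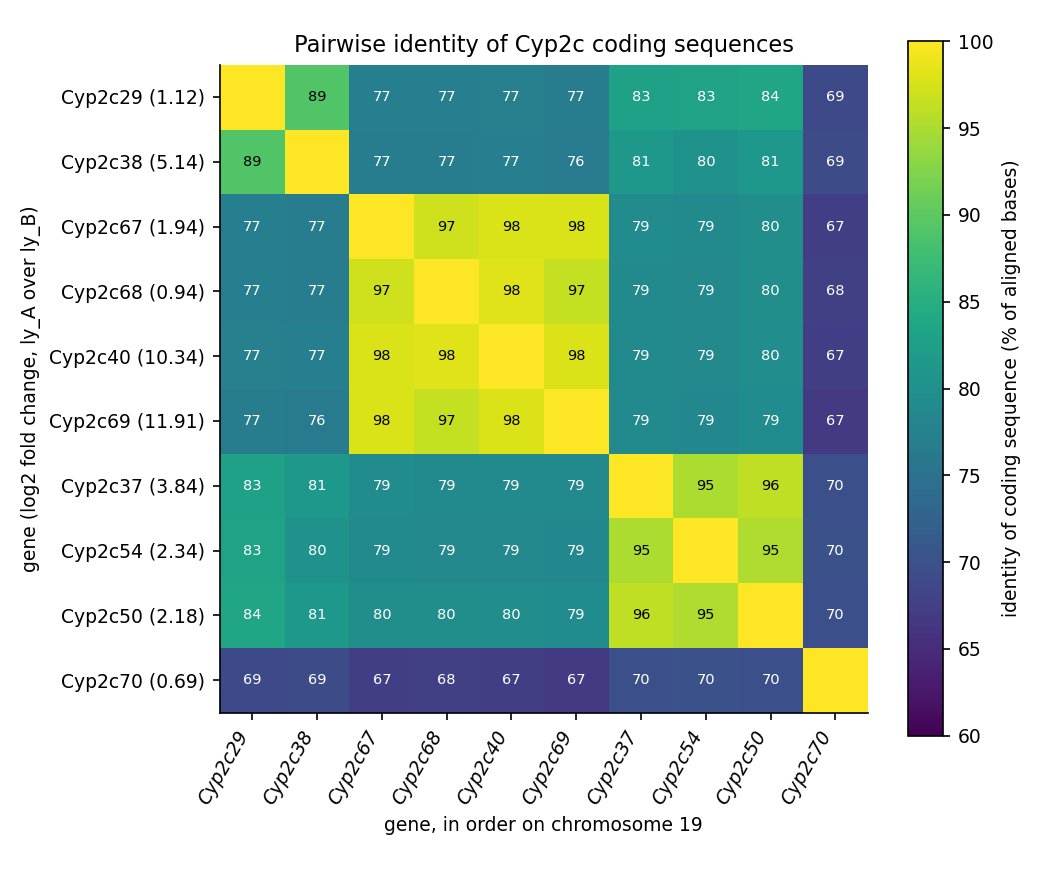
Percent of aligned coding bases that are identical for each pair of the 10 Cyp2c genes, in their order on chromosome 19, with each gene's log2 fold change (ly_A over ly_B) on the vertical axis. A block of 4 genes with values between 0.94 and 11.91 and a block of 3 with values between 2.18 and 3.84 share over 95% of their bases, while Cyp2c70 stands apart.

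Cyp2c38 had the smallest p of the 10 genes. It encodes an arachidonic acid epoxygenase, and it was 35.3-fold higher in ly_A (log2 5.14, adjusted p = 3.15e-57), rank 4 by p among all genes tested in the authors' deposited table. Its nearest relative in coding sequence is Cyp2c39, at 94.2% identity, a retinoic acid hydroxylase that is not among the 10. Cyp2c39 stood at 2.44 (adjusted p = 2.1e-07) in the authors' deposited table. Cyp2c29, an abundant hepatic epoxygenase whose expression is known to rise with CAR activators such as phenobarbital, is the next relative, with 89.1% identity to Cyp2c38. Cyp2c29 was 2.18-fold higher in ly_A (log2 1.12, adjusted p = 6.47e-05) in the authors' deposited table, and 15.3% of all genes tested had a larger value. The neighbouring and related genes Cyp2c38, Cyp2c39 and Cyp2c29 thus had values between 1.12 and 5.14.

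Cyp2c37, Cyp2c50 and Cyp2c54 form another block of close copies, and their values were closer to each other than those of the block that holds Cyp2c69. Cyp2c37, which makes a hydroxylated product of arachidonic acid, was 14.3-fold higher in ly_A (log2 3.84, adjusted p = 1.3e-30) in the authors' deposited table. Cyp2c54, which oxidises arachidonic and linoleic acid, was 5.08-fold higher (log2 2.34, adjusted p = 4.71e-09) in the authors' deposited table. Cyp2c50, with the same known substrates, was 4.54-fold higher (log2 2.18, adjusted p = 2.12e-11) in the authors' deposited table. All 3 passed in the same direction, and their coding sequences share between 95.1% and 96.1% of aligned bases.

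Cyp2c70 had the smallest difference and did not pass. This enzyme makes muricholic acids, the bile acids typical of mice, and its coding sequence is the most distant of the 10, with at most 69.9% identity to another of them. Its value was 0.69, or 1.61-fold towards ly_A (p = 0.0381, adjusted p = 0.0909), in the authors' deposited table. Of all genes tested, 25.9% had a larger value. That it missed the threshold does not show that it was equal in both sets.

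**Figure D3:**
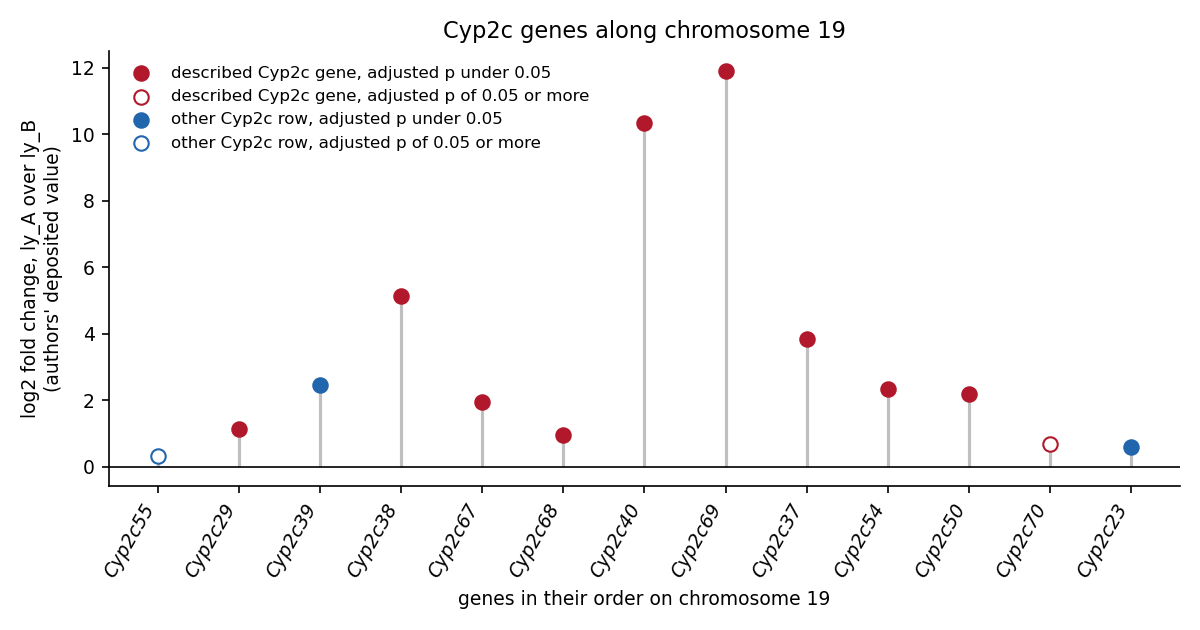
Log2 fold change (ly_A over ly_B) of the Cyp2c rows of the authors' deposited table in their order on chromosome 19, with filled points at an adjusted p under 0.05. The neighbours Cyp2c40 and Cyp2c69 reach 10.34 and 11.91, while Cyp2c70 at 0.69 and Cyp2c23 at 0.60 at one end and Cyp2c55 at 0.32 at the other have the smallest values.

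The order of the genes on chromosome 19 in RefSeq (GRCm38.p6) puts Cyp2c40 and Cyp2c69 next to each other, after Cyp2c68 and before the pseudogene Cyp2c71-ps and Cyp2c37. Cyp2c68, the neighbour of Cyp2c40 on the other side, had a value of 0.94, so genes next to each other had values at both ends of the range. The table was made on build mm9 per the submitters' processing notes, which differs from the build of RefSeq used here. RefSeq serves only for gene order and for the upstream sequences below, and gave none of the fold changes. Besides the 10 genes, the table holds 3 other Cyp2c rows. Cyp2c39 is given above. Cyp2c23, an arachidonic acid epoxygenase also called Cyp2c44, was 1.51-fold higher in ly_A (log2 0.60, adjusted p = 0.0131), and Cyp2c55 did not pass (log2 0.32, adjusted p = 0.72), both in the authors' deposited table. Counting these 3, 11 of 13 Cyp2c rows were called higher in ly_A and 0 higher in ly_B.

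How far reads can be shared was read from the GENCODE M21 transcripts. Of the 50-base windows of a transcript, 72.1% of those of Cyp2c40, 54.8% of Cyp2c69, 52.8% of Cyp2c67 and 43.3% of Cyp2c68 occur unchanged in a transcript of another Cyp2c gene. At 150 bases the shares were 29.1% for Cyp2c40, 22.5% for Cyp2c69, 13.0% for Cyp2c67 and 8.83% for Cyp2c68. In the block of Cyp2c37, Cyp2c50 and Cyp2c54 between 25.7% and 30.7% of 50-base windows were shared, and at most 3.25% at 150 bases. Cyp2c38 shared 7.45% and Cyp2c29 2.08% at 50 bases and none at 100, and Cyp2c70 shared none at 50. Among the 10 genes, Cyp2c38, Cyp2c29 and Cyp2c70 thus have the least sequence in common with other Cyp2c genes at read length scale. How the authors' counting treated reads that match several copies is not given in the sources used here, and its part in the values of the other 7 genes was not tested.

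**Figure D4:**
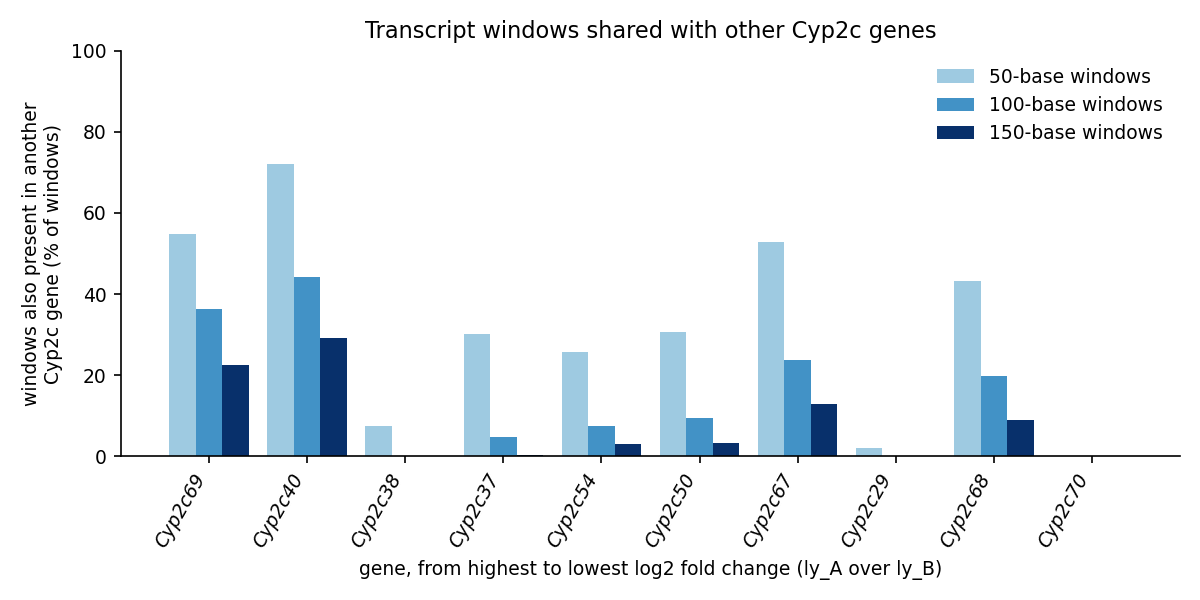
Percent of the 50-base, 100-base and 150-base windows of each gene's transcript that also occur in another Cyp2c gene, with genes from the highest to the lowest log2 fold change (ly_A over ly_B). Cyp2c40 has the highest shares, 72.1% at 50 bases and 29.1% at 150, and Cyp2c70 has none.

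The bases before the start site are shown for Cyp2c69 and Cyp2c40, with the largest values, and for Cyp2c70, with the smallest. They are the 250 bases upstream of the RefSeq start site (GRCm38.p6), written in the direction of the gene. Capitals mark matches on either strand to the 4 motifs searched, which were AGGTCA (a nuclear receptor element), CAAAGTCCA (a site type bound by the liver factor HNF4A), TTCNNNGAA (the STAT type) and TATAAA.
Cyp2c69, chr19:39886770-39887019, strand minus: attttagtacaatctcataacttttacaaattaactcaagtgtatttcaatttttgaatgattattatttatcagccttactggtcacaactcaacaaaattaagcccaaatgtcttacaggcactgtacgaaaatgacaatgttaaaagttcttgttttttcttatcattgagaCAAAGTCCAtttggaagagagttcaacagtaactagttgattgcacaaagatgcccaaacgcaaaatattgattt
Cyp2c40, chr19:39812815-39813064, strand minus: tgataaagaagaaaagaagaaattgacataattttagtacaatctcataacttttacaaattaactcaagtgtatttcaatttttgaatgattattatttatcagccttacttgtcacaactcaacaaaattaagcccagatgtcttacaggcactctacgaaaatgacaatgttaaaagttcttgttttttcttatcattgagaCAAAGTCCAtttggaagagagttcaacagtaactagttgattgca
Cyp2c70, chr19:40187287-40187536, strand minus: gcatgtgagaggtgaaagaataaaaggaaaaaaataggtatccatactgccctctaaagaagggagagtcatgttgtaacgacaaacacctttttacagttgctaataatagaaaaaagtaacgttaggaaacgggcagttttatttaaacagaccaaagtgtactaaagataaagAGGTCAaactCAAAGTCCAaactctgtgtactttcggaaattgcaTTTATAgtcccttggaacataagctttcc
The windows of Cyp2c69 and Cyp2c40 are shifted copies of each other, with 217 of 220 aligned bases identical. Each holds CAAAGTCCA, with its first base at -75 from the annotated start in Cyp2c69 and at -45 in Cyp2c40. Cyp2c70, with the smallest value, holds it too, at -64. RefSeq promoters were found for 9 of the 10 genes, and CAAAGTCCA stood in 5 of the 9, those of Cyp2c40, Cyp2c67, Cyp2c68, Cyp2c69 and Cyp2c70. It stood in 0.384% of the 32851 promoter windows of that length. The upstream windows of Cyp2c40, Cyp2c67, Cyp2c68 and Cyp2c69 share between 92.9% and 98.6% of their aligned bases, so these matches are not independent of each other. AGGTCA stood in 2 of the 9 windows, against 14% of all, and TATAAA in 4, against 12.4% of all. TTCNNNGAA stood in none of the 9, against 7.02% of all. The motif found in both the largest and the smallest member does not separate them by value, and a match is a description of letters only.

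Other cytochrome P450 genes lay mostly in the same direction. Of 58 tested outside the Cyp2c subfamily, 29 were higher in ly_A and 1 in ly_B in the authors' deposited table, with a median log2 fold change of 1.01. Set beside 9 of the 10 Cyp2c genes, this is a lower share of calls towards ly_A. The 10 were chosen with earlier results of these data known, and that difference was not tested. The largest values among called genes were those of the sterol hydroxylase Cyp8b1 at 6.62, Cyp2e1 at 3.88, Cyp2g1 at 3.52, Cyp4a12b at 2.85 and the oxysterol hydroxylase Cyp7b1 at 2.81 (adjusted p at most 0.0469) in the authors' deposited table. All lay below Cyp2c69 and Cyp2c40. Cyp8b1 lay above the next Cyp2c gene, Cyp2c38 at 5.14, and Cyp2e1 lay above Cyp2c37 at 3.84. Cyp2f2 was the one called higher in ly_B, at -0.84 (adjusted p = 0.000537), in the authors' deposited table.

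Of the genes that handle arachidonic acid and its epoxides, mainly other cytochromes P450 were called. Of 21 tested genes of arachidonic acid release, oxidation and epoxide hydrolysis, 13 were higher in ly_A and 0 in ly_B in the authors' deposited table, with a median of 1.09. The 11 P450 genes among them, already counted above, were all called higher in ly_A. Of the 10 that are not P450 genes 2 were, Ephx2 and Ptgs1, against 18.1% of all genes tested. Cyp4f15 at 2.55 and the hydroxylases Cyp4a12a at 2.75 and Cyp4a12b at 2.85 were the largest called values (adjusted p at most 0.0143) in the authors' deposited table. Ephx2, the soluble epoxide hydrolase that breaks down the epoxides made by Cyp2c enzymes, stood at 1.20 (adjusted p = 3.28e-06) in the authors' deposited table.

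The genes of electron supply to these enzymes and of haem synthesis and breakdown were split. Of 16, 6 were higher in ly_A and 3 in ly_B in the authors' deposited table, with a median of 0.25. The haem synthesis gene Uros at 1.22 and the biliverdin reductase Blvrb at 1.05 were higher in ly_A, and the haem synthesis gene Cpox at -0.82 was higher in ly_B (adjusted p at most 0.02) in the authors' deposited table. Por, the reductase that all Cyp2c enzymes depend on, did not pass (log2 0.82, adjusted p = 0.0631) in the authors' deposited table.

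A list of nuclear receptors and liver factors, which includes CAR and PXR, was called in both directions. It was not limited to known regulators of Cyp2c genes. Of its 20 genes, 7 were higher in ly_A and 5 in ly_B in the authors' deposited table, with a median of -0.02. Nr1i2, which encodes PXR, stood at 1.80 and Onecut1, a liver-enriched factor, at -4.05 (adjusted p at most 5.96e-12) in the authors' deposited table. Nr1i3, which encodes CAR, stood at 1.41 (adjusted p = 0.000114) in the authors' deposited table. Hnf4a did not pass (log2 -0.05, adjusted p = 0.876) in the authors' deposited table. Of 10 genes of the growth hormone axis, 4 were higher in ly_A and 2 in ly_B, with the repressor Bcl6 at 2.30, the feedback inhibitor Cish at -1.97 and Igfals at 0.97 (adjusted p at most 0.0004) in the authors' deposited table. Of 8 other female-biased liver genes that were tested, 2 were higher in ly_A and 0 in ly_B in the authors' deposited table, among them the monooxygenase Fmo2 at 1.85 (adjusted p = 9.39e-08).

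**Figure D5:**
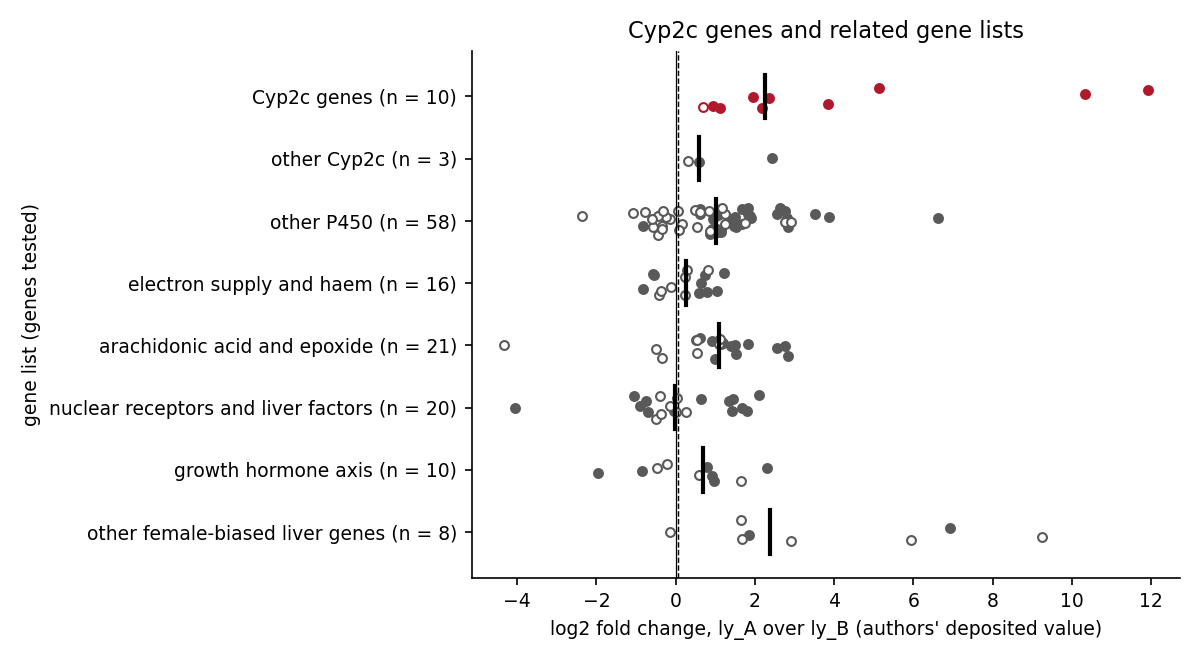
Log2 fold change (ly_A over ly_B) of the Cyp2c genes and of the related gene lists, from the authors' deposited table; filled points passed an adjusted p of 0.05, black bars are list medians and the dashed line is the median of all genes tested. The Cyp2c genes have a median of 2.26 and the list of nuclear receptors and liver factors one of -0.02.

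Markers of liver cell types were also called. Of 11 pericentral hepatocyte markers, 7 were higher in ly_A and 0 in ly_B in the authors' deposited table, with Slc1a2 at 8.27, Glul at 5.06 and Cyp2e1 at 3.88 (adjusted p at most 9e-50). Of 9 periportal markers, 1 was higher in ly_A, Sds at 0.98, and 3 in ly_B, with Cdh1 at -2.67 and Hsd17b13 at -0.95 (adjusted p at most 0.00808) in the authors' deposited table. Of 12 general hepatocyte markers, 5 were higher in ly_A and 1 in ly_B in the authors' deposited table, with a median of 0.63; Apoa1 stood at 1.22, Ttr at 1.07 and Apob at -1.07 (adjusted p at most 0.00029). Endothelial markers were higher in ly_A for 7 of 8, with Vwf at 1.89, Stab2 at 1.77 and Kdr at 1.25 (adjusted p at most 1.22e-05) in the authors' deposited table. Markers of T, B or NK cells were higher in ly_A for 5 of 9 (1 of 9 at an adjusted p under 0.01), with Cd4 at 2.43, Nkg7 at 1.99 and Cd3e at 1.80 (adjusted p at most 0.0292) in the authors' deposited table. Macrophage markers were split, 2 of 9 each way, with Clec4f at 2.63, Gpnmb at -4.93 and Itgam at -2.14 (adjusted p at most 0.000411) in the authors' deposited table. Of 10 tested stellate cell markers 2 were higher in ly_B, Timp1 at -4.64 and Pdgfrb at -0.67 (adjusted p at most 0.00842) in the authors' deposited table. Of 8 cholangiocyte markers 1 was higher in ly_B, Sox9 at -1.68 (adjusted p = 1.54e-13), while Krt19 had 0.98 (adjusted p = 0.1) and Krt23 0.997 (adjusted p = 0.269) in the authors' deposited table. None of the 4 tested neutrophil markers passed, with S100a9 at 0.94 (adjusted p = 0.16) and S100a8 at 0.92 (adjusted p = 0.254) in the authors' deposited table. The part of these cell types in the Cyp2c values was not tested, and their levels were not examined.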

How the data were processed

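Bulk RNA sequencing of liver was labelled for 3 mice of a CCl4 group and 3 of a normal group, with Trizol extraction and a NEBNext kit per the labels' protocols. The submitters' processing notes name DESeq2, without a version, and build mm9; for the aligner, the counter and the annotation the sources used here give nothing. Per gene, the authors deposited a log2 fold change, a p-value and an adjusted p-value of their comparison, and these 3 columns were used as they stand. The names ly_A and ly_B match no label, and the 18 columns of single libraries were by choice not used. No own test was run, and the sign of the fold change, the depth per library and the precision it gives were not examined. The edgeR test was planned only for columns tied to labelled samples, and was not run. The deposited adjusted p was exactly 1 in 2312 rows, taken as not tested; in the other 14114 it equalled a Benjamini-Hochberg adjustment over those rows to a relative difference of 9.47e-13. Genes with an adjusted p below 0.05 were called.

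The members and lists were chosen with earlier results of these data known. Named are all Cyp2c rows, up to 5 called genes per direction of the other cytochromes P450, and for each further list the 3 called genes with the largest change, or the 2 with the smallest p where fewer than 2 passed; Ephx2, Ptgs1, Por, Nr1i3 and Hnf4a were added after their values were seen. Some genes that the rule takes are not reported here. Coding sequences (the longest per gene, GENCODE M21) were aligned globally in pairs with Biopython 1.88, and identity was counted over bases aligned without gaps. The adjustment and the identity count were tested on simulated data. Alternatives tried were a stricter adjusted p of 0.01, an added limit of 2-fold, adjustment over all 16426 rows, and leaving out genes with a close copy; the last used coding in place of protein sequence, a choice made after seeing the data.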

Additional observations from a re-analysis of the deposited data

How the results depend on the processing

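The count of 9 Cyp2c genes higher in ly_A was 9 at an adjusted p under 0.01, 8 with a 2-fold difference as well (Cyp2c68, at 0.94, drops out) and 9 with adjustment over all 16426 rows. Leaving out the 7 genes with a Cyp2c copy of at least 95% coding identity left 2 called, Cyp2c29 and Cyp2c38, of 3, because fewer genes were counted; this alternative was chosen after seeing the data. No Cyp2c gene was called higher in ly_B under any of these. Requiring 2-fold as well gave 1542 genes higher in ly_A and 1108 in ly_B over all genes tested. It gave 1 other Cyp2c gene in ly_A and 0 other cytochromes in ly_B. For electron supply and haem it gave 2 in ly_A and 0 in ly_B, for nuclear receptors and liver factors 2 in ly_B, and for the growth hormone axis 1 in ly_A and 1 in ly_B. An adjusted p under 0.01 gave 1 other Cyp2c gene in ly_A and 1 gene of electron supply and haem in ly_B. The other alternatives left the counts of the 7 related gene lists within 1.5 times. Among the cell type markers, tried after seeing the data, requiring 2-fold as well gave 2 general hepatocyte genes in ly_A, 0 periportal genes in ly_A and 1 in ly_B, and 1 stellate cell gene in ly_B, and an adjusted p under 0.01 gave 1 T, B or NK cell gene in ly_A; the other marker counts stayed within 1.5 times. No paired analysis was possible because the deposited columns carry no replicate number of a labelled sample. No replicate was left out and no other count test or scaling was run, because the columns of single libraries were not used. Such checks between ly_A and ly_B do not need a labelled sample, so leaving them out was a choice and not a limit of the data. The reads behind Cyp2c69 and Cyp2c40 in ly_B, which limit how their values can be read, were not examined.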
